A study of Mus musculus with 2 samples.

Results

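Interferon-stimulated genes (ISGs) were followed through the cell types of the mouse abdominal aorta. The list held 41 genes out of 33696 in the count tables. Its members were chosen by gene symbol, for their known induction by interferon, and all 41 were found in both tables. Single-cell libraries were made from abdominal aortas of male C57BL/6J mice that were 5 months old. The group named Control received saline for 28 days. The group named AngII+HS received angiotensin II, a vasoconstrictor peptide, at 1500 ng/kg/min from an implanted osmotic pump for the same 28 days, with high-salt drinking water holding 0.9% NaCl and 0.2% KCl, as a model of abdominal aortic aneurysm. Each group was 1 library of pooled tissue. The design text gives 5 mice for each library, whereas the protocol of the samples counts 1 mouse for Control and 2 for AngII+HS, so the number of animals behind a library was not settled and no animal could be told from another.

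Interferons are cytokines that switch on an antiviral program. Type I interferons and interferon gamma bind their own receptors, and Janus kinases then phosphorylate STAT factors. Stat2 and Irf9 are subunits of the ISGF3 complex, which binds the interferon-stimulated response element (ISRE) in ISG promoters, whereas the gamma-activated site (GAS) serves mainly the response to interferon gamma. The proteins that result block viral RNA and its translation, sense foreign nucleic acid, or attack the membranes around intracellular pathogens. The members were grouped by these roles.

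The measure was the number of unique molecular identifiers (UMIs), each standing for 1 captured mRNA 3′ end. UMIs were summed over the cells of a type in a library and divided by all UMIs of those cells, and given as CPM, the usual scaling of counts to 1 fixed total. One molecule gives 1 UMI whatever the length of the mRNA, so levels of different genes can be set side by side on this scale. Each condition was a single library, so the conditions could not be tested against each other, and the values below compare 2 libraries. A log2 ratio is AngII+HS over Control. A range in parentheses is an exact 95% interval of counting (Poisson for levels, conditional binomial for ratios, Clopper-Pearson for shares of cells), which leaves out all variation between mice and between libraries. A gene was called measured in a cell type if it had at least 20 UMIs there over both libraries, and medians and counts over genes were taken after 0.5 UMI was added to each sum.

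The Control library kept 10269 cells with a median of 7274 UMIs and the AngII+HS library 19734 cells with a median of 3065.5 UMIs. Clustering, done without the interferon genes, gave 24 clusters, of which 21 were named from marker genes. Vascular smooth muscle cells (VSMCs) numbered 5022 in Control and 816 in AngII+HS, and neutrophils 99 and 4659. The recorded barcode lists were crossed in length, that of Control having 24804 lines for a matrix of 11448 cells and the reverse for AngII+HS. Each matrix was taken as labelled, without its list. If the matrices themselves were exchanged, all directions given here would turn.

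Many promoters of the members held the letters of the ISRE. RefSeq promoter sequences (build GRCm38.p6, from 250 bases before to 50 bases after the transcription start) were at hand for 33 of the 41 members. As the core of an ISRE, 2 copies of GAAA with any 2 bases between them were searched on both strands, and occurred in 21 of these 33 promoters (63.6%) and in 3.99% of all 27025 genes with a promoter. The letters TTCNNNGAA, the palindromic core of a GAS, occurred in 7 of 33 (21.2%) against 9.55% of all genes. Matches of the 2 motifs can overlap, and a match of letters is not a site shown to be bound.

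The windows below are shown as examples of members whose promoters hold the letters. Each is 50 bases long, reads 5′ to 3′ along the strand of the gene, lies upstream of the start, and has the ISRE letters in capitals on whichever strand they occur.
*Ifit1*, plus strand, chr19:34640784-34640833: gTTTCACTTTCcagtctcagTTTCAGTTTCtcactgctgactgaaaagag
*Ifit3*, plus strand, chr19:34583387-34583436: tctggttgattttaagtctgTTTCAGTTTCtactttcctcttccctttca
*Isg15*, minus strand, chr4:156200855-156200904: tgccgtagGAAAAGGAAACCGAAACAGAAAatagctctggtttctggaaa
*Rsad2*, minus strand, chr12:26456543-26456592: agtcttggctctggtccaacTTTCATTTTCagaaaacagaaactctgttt
*Ifi203*, minus strand, chr1:173942498-173942547: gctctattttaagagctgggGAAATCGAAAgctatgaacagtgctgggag
*Ifi207*, minus strand, chr1:173741821-173741870: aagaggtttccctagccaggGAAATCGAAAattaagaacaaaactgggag
*Ifi211*, minus strand, chr1:173913054-173913103: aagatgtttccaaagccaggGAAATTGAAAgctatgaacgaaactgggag
*Gbp2*, plus strand, chr3:142620584-142620633: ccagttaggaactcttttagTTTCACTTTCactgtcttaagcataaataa
*Igtp*, plus strand, chr11:58199502-58199551: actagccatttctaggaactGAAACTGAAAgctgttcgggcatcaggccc
The window of *Ifit3b*, at chr19:34607783-34607832, had the same letters as that of *Ifit3*, and the reads of such near copies may be shared between them. The 3 p200 windows on chromosome 1 resembled each other over most of their length. The promoters of *Oasl1*, *Irf7*, *Irf9*, *Ifit2*, *Oasl2*, *Cmpk2*, *Isg20*, *Xaf1*, *Ifi44*, *Ifi35*, *Ifi209* and *Ifi47* did not hold the ISRE letters in this window.

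Macrophages had the highest summed level of the 41 genes in both libraries. Summed over members, the level in Control was 6920 CPM (6809 to 7031) in macrophages and 3757 CPM (3584 to 3936) in neural cells, the Schwann-type glia of the wall. Vascular endothelial cells (VECs) followed at 1502 CPM, lymphatic endothelial cells (LECs) at 1360 CPM, neutrophils at 1329 CPM and fibroblasts at 1316 CPM, and the intervals of the last 3 overlapped. B cells at 860 CPM and T cells at 831 CPM also had overlapping intervals. The clusters named VSMC were together lowest at 172 CPM (168 to 175). In AngII+HS the order was macrophages 4613 CPM, neutrophils 2750 CPM, neural cells 2575 CPM, LECs 2233 CPM, VECs 1974 CPM, T cells 1694 CPM, fibroblasts 1311 CPM, B cells 914 CPM and VSMCs 389 CPM (375 to 404). Over all cells together the sum was 664 CPM in Control and 2282 CPM in AngII+HS, a comparison that mixes the level per cell type with the different make-up of the libraries. Dendritic cells (DCs) had 1930 CPM in only 37 Control cells and 3342 CPM in 536 AngII+HS cells, and plasma cells, found in AngII+HS alone with 165 cells, had 856 CPM.

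**Figure D1:**
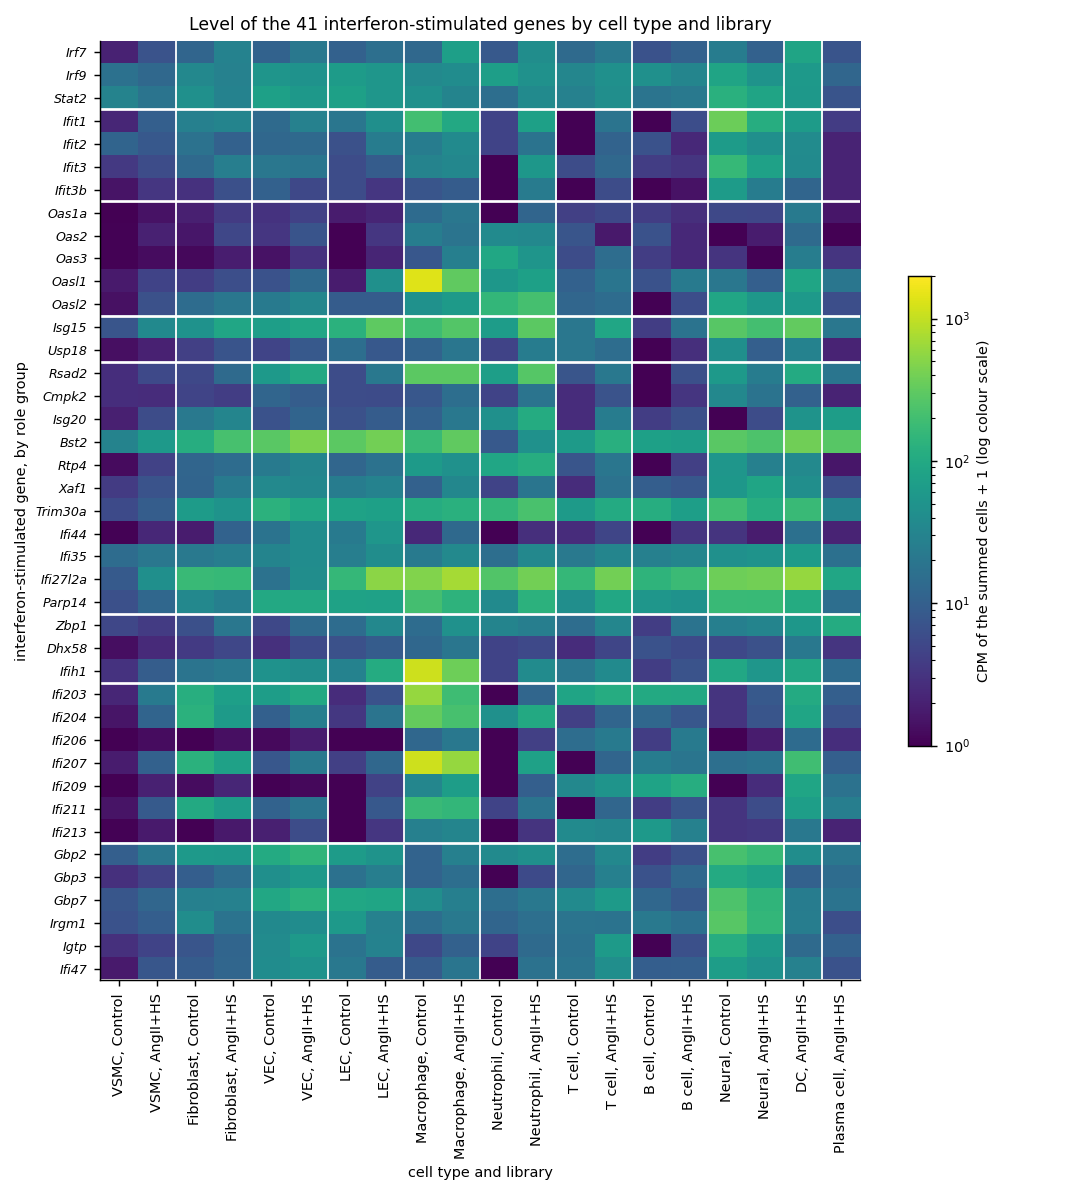
Level of each of the 41 genes (rows, by role group) in each cell type and library (columns), as CPM + 1 on a log colour scale; DCs and plasma cells are shown for AngII+HS only. The brightest cells are *Oasl1*, *Ifih1* and *Ifi207* in Control macrophages, and the VSMC columns are the darkest of the vessel wall.

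The members differed widely in level. By the mean CPM of both libraries over all cells, *Ifi27l2a*, a small interferon-induced membrane protein, and *Bst2*, the tetherin that holds budding virions at the cell surface, were the most abundant. They were followed by *Ifi207*, *Isg15*, *Ifih1*, *Oasl1*, *Ifi203*, *Rsad2*, *Ifi204* and *Trim30a*. In Control alone the order differed, with *Bst2* at 65.9 CPM ahead of *Ifi27l2a* at 53.1 CPM. *Dhx58*, *Usp18*, *Cmpk2*, *Ifit3b*, *Oas1a*, *Oas2*, *Ifi44* and *Ifi206* stayed below 100 CPM in every named cell type and library.

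The difference between the libraries was not the same in all cell types. The median log2 ratio of the measured members was 1.44 in VSMCs, 1.32 in neutrophils and 1.15 in T cells. It was 0.60 in LECs, 0.55 in VECs, 0.50 in macrophages and 0.49 in fibroblasts. It was 0.03 in B cells and -0.73 in neural cells. In neutrophils, T cells and B cells most members passed the minimum only through the AngII+HS sum. The medians of those cell types are therefore a description only. Values for VSMCs are sums over 3 clusters, which differed among themselves, unless a cluster is named. The median of all measured genes lay between -0.17 in fibroblasts and 0.22 in neutrophils.

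**Figure D2:**
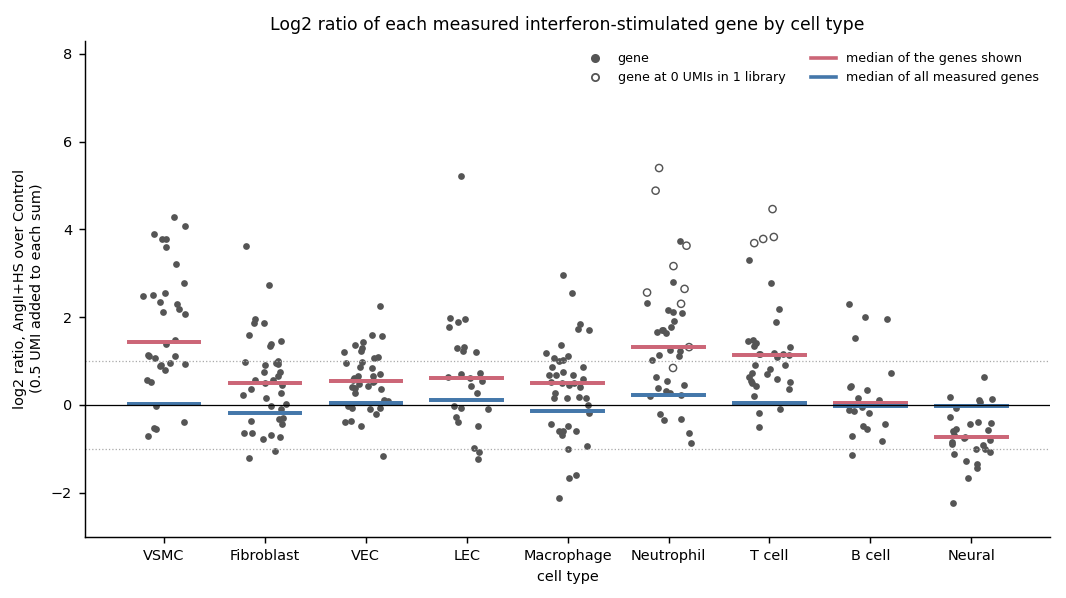
Log2 ratio, AngII+HS over Control, of each measured ISG (points; open where 1 library had 0 UMIs) in 9 cell types, with the median of the ISGs (red) and of all measured genes (blue); dotted lines mark a 2-fold difference. VSMC is the sum of 3 clusters. Points of VSMCs, neutrophils and T cells lie mostly above 0 and those of neural cells mostly below 0.

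The role groups also differed in direction within a cell type. The p200 family, DNA-binding proteins of the innate response, had a summed log2 ratio of 4.01 (3.74 to 4.29) in VSMCs, -0.77 (-0.82 to -0.72) in fibroblasts and -0.85 (-0.90 to -0.81) in macrophages. The IFIT family, which binds viral RNA and stops its translation, was at 4.51 (2.65 to 7.55) in neutrophils and -1.35 (-1.58 to -1.11) in neural cells. The neutrophil value sets 7.36 CPM for the 4 genes together in 99 Control cells against 167 CPM in AngII+HS. It thus rests on very few Control UMIs and is a description only. The interferon-inducible GTPases, which attack the membranes of pathogen vacuoles, ranged only from -0.65 in neural cells to 1.10 in T cells. The 3 transcription factors together lay between -0.69 in neural cells and 0.62 in macrophages.

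**Figure D3:**
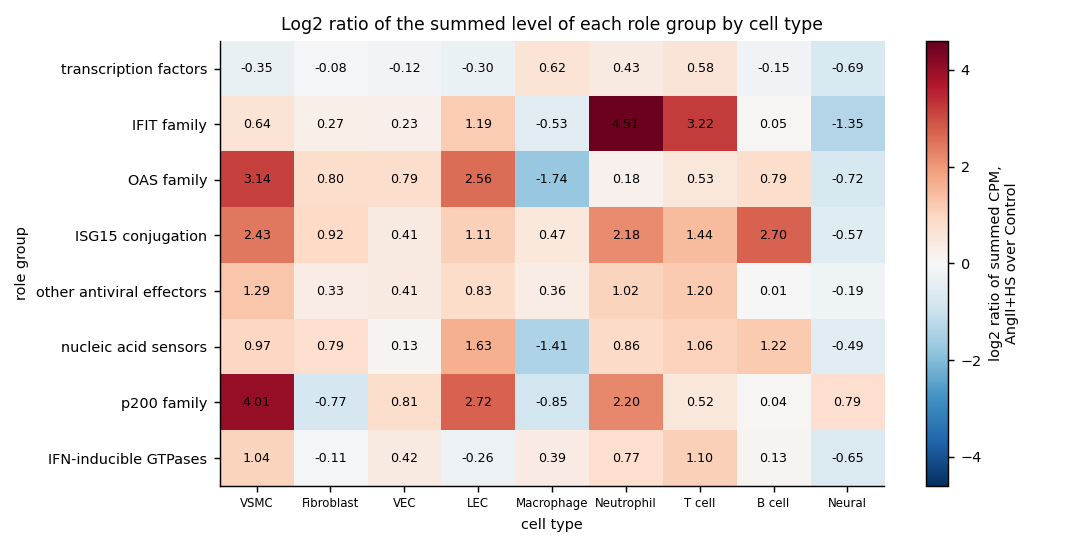
Log2 ratio, AngII+HS over Control, of the summed CPM of each role group (rows) in 9 cell types (columns), printed in each field and coloured red above 0 and blue below; sums include members with under 20 UMIs. The OAS family is at 3.14 in VSMCs and at -1.74 in macrophages, and the p200 family is red in VSMCs and blue in fibroblasts and macrophages.

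The VSMCs, the contractile cells of the media, were read cluster by cluster. Of the 3 clusters named VSMC, the one led by *Pln* had *Notch3*, 1 of 5 pericyte markers, among its 10 leading genes, which held no VSMC marker. The leading genes of the others held markers of neither. Summed, the 5 pericyte markers were lower in the *Pln* cluster (2399 CPM in Control, 5268 in AngII+HS) than in those led by *Mylk4* (5284 and 6123) and *Des* (8574 and 8581). The 5 VSMC markers had 29166 and 19057 CPM in the *Pln* cluster, 27495 and 38896 in the *Mylk4* cluster, and 31639 and 45037 in the *Des* cluster. The *Pln* cluster held 174 of the 5022 cells in Control and 217 of the 816 in AngII+HS. The cluster led by *Mylk4* held 3994 and 500, and that led by *Des* 854 and 99.

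In the VSMC cluster led by *Mylk4*, 12 of 31 measured members were at least 2-fold higher in AngII+HS, against 5.60% of all genes, and 2 were at least 2-fold lower, against 11.8%. The sum over members was 166 CPM in Control and 220 CPM in AngII+HS, with a median log2 ratio of 0.54. *Bst2* was the most abundant member there, with 29.3 CPM in Control and 40.2 CPM in AngII+HS (log2 ratio 0.46, 0.24 to 0.68). *Ifi27l2a* had 7.39 and 34.6 CPM (2.23, 1.95 to 2.50), and *Oasl2* had 0.378 and 3.46 CPM (3.19, 2.12 to 4.27). The ratio of *Isg15*, a ubiquitin-like modifier, was smaller, with 5.5 and 7.52 CPM (0.45, -0.09 to 0.96). *Ifi204*, a p200 DNA sensor, had 20 UMIs in Control and 13 in AngII+HS, or 0.472 and 2.64 CPM (2.48, 1.36 to 3.56). *Stat2*, the ISGF3 subunit, was lower, with 27.6 and 12 CPM (-1.20, -1.60 to -0.82).

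In the cluster led by *Pln*, 19 of 26 measured members were at least 2-fold higher, against 8.74% of all genes, and 0 were at least 2-fold lower, against 5.83%. The sum over members was 425 CPM in Control and 1272 CPM in AngII+HS, with a median log2 ratio of 1.56. *Isg15* had 44.9 and 187 CPM (2.06, 1.65 to 2.48), *Ifi203* had 20.7 and 121 CPM (2.55, 1.97 to 3.17), and *Bst2* had 58.8 and 164 CPM (1.48, 1.11 to 1.87). *Stat2* had 46.3 and 45.8 CPM (-0.02, -0.57 to 0.53), so the lower *Stat2* of the *Mylk4* cluster was not seen here. Markers of other cells also differed: in this cluster the 6 neutrophil markers together had 4.84 CPM in Control and 421 CPM in AngII+HS, and the 5 VEC markers 719 and 3112 CPM. In the *Mylk4* cluster the neutrophil markers had 5.74 and 141 CPM. The part of these other cells in the ISG ratios was not tested.

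In the cluster led by *Des*, with only 99 AngII+HS cells, 5 of 16 measured members were at least 2-fold higher, against 6.14% of all genes. There 3 were at least 2-fold lower, against 9.47%. The sum over members was 157 CPM in Control and 218 CPM in AngII+HS, with a median log2 ratio of 0.27. Summed over the 3 clusters, whose shares differed between the libraries, 22 of 34 measured members were at least 2-fold higher, against 8.46% of all 15718 measured genes, and 0 were at least 2-fold lower, against 8.57%. In these sums *Ifi204* had 0.533 CPM in Control and 10.4 CPM in AngII+HS (log2 ratio 4.29, 3.64 to 4.98), and *Ifi203* had 1.28 and 21.5 CPM (4.07, 3.65 to 4.51). For *Ifi203* this was more than in the *Mylk4* cluster (1.83, 0.73 to 2.85) or in the *Pln* cluster. *Isg15* had 6.53 and 36.3 CPM (2.47, 2.23 to 2.71), and *Ifit2* had 10.5 and 7.11 CPM (-0.56, -1.01 to -0.14). With double the number of doublets removed the median of the sums was 1.02, and with an estimate of free RNA subtracted it was 1.2.

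In fibroblasts, the matrix-producing cells of the adventitia, 10 of 39 measured members were at least 2-fold higher in AngII+HS, against 6.94% of all genes, and 2 were at least 2-fold lower, against 9.23%. The summed level hid opposite differences, being 1316 CPM in Control and 1311 CPM in AngII+HS. *Ifi44*, an antiviral protein of the interferon response, had 0.758 CPM in Control and 9.82 CPM in AngII+HS (log2 ratio 3.70, 2.70 to 4.92). *Oas2*, an enzyme whose oligoadenylates activate RNase L, had 0.568 and 4.08 CPM (2.84, 1.68 to 4.32). *Bst2* had 113 CPM in Control and 218 CPM in AngII+HS, and *Isg15* had 47.5 and 89.8 CPM. Of the 5 measured p200 genes 4 went the other way, and 1 was at least 2-fold higher. *Ifi204* had 128 and 61.4 CPM (-1.06, -1.16 to -0.96), *Ifi207* had 128 and 76.7 CPM (-0.74, -0.84 to -0.64), and *Ifi211* had 101 and 65.0 CPM. *Irgm1*, a GTPase of the autophagic response, had 40.1 CPM in Control and 17.3 CPM in AngII+HS (-1.21, -1.40 to -1.02).

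The fibroblast clusters differed in the p200 genes. In the cluster led by *Ptx3* (863 Control and 1571 AngII+HS cells), *Ifi204* had 302 CPM in Control and 108 CPM in AngII+HS, and *Ifi207* had 280 and 116 CPM. In the clusters led by *Dio2* and *Comp* the levels were lower and went the other way, with *Ifi204* at 8.70 and 21.7 CPM (log2 ratio 1.32, 0.75 to 1.93) and at 11.2 and 41.4 CPM (1.89, 1.27 to 2.57). In the *Ptx3* cluster *Isg15* had 52.2 CPM in Control and 130 CPM in AngII+HS (log2 ratio 1.32, 1.11 to 1.53). The count over all fibroblasts depended on the processing. With double the number of doublets removed 4 of 37 members were at least 2-fold higher, with a median of 0.16, and with free RNA subtracted 6 were higher and 6 lower, with a median of 0.05. Within the *Ptx3* cluster 6 of 37 were at least 2-fold higher and 7 lower. The 6 neutrophil markers had 8.91 CPM in Control and 192 CPM in AngII+HS fibroblasts, and their part in the ratios was not tested.

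In VECs, the lining of the vessel and its small branches, 10 of 38 measured members were at least 2-fold higher in AngII+HS, against 7.93% of all genes, and 1 was at least 2-fold lower, against 5.93%. *Zbp1*, a sensor of Z-form nucleic acid, had 4.16 CPM in Control and 12.8 CPM in AngII+HS (log2 ratio 1.62, 0.87 to 2.45). *Ifi207* had 6.93 and 20.8 CPM (1.59, 1.01 to 2.21). *Bst2* was the most abundant member, with 282 and 449 CPM (0.67, 0.57 to 0.77). *Trim30a*, a RING-finger regulator of inflammatory signalling, had 133 CPM in Control and 95.5 CPM in AngII+HS (-0.48, -0.64 to -0.31), and *Ifit3b* had 9.47 and 4.2 CPM (-1.17, -1.94 to -0.43).

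The ratios of several GTPases differed between the VEC clusters. In the cluster led by *Cytl1*, which expressed the arterial connexin *Gja5*, *Gbp2* had 115 CPM in Control and 248 CPM in AngII+HS (log2 ratio 1.11, 0.91 to 1.32). *Gbp3* had 43.9 and 102 CPM there (1.22, 0.89 to 1.56), and *Igtp* had 42.8 and 93.8 CPM (1.13, 0.80 to 1.48). In the cluster led by *Fabp4*, a fatty acid carrier of capillary endothelium, *Gbp2* had 88.2 and 87.9 CPM (0.00, -0.29 to 0.28), *Gbp3* had 40.2 and 32.8 CPM (-0.30, -0.73 to 0.15), and *Igtp* had 30.8 and 39.6 CPM (0.36, -0.10 to 0.84). The intervals of *Gbp2* and *Gbp3* did not overlap between the clusters, and those of *Igtp* did. *Isg15* had 82.9 and 112 CPM in the *Fabp4* cluster and 60.2 and 46.9 CPM in the *Cytl1* cluster (-0.36, -0.73 to 0.01). The *Fabp4* cluster held 339 of 838 VECs in Control and 807 of 1203 in AngII+HS, and the *Cytl1* cluster the rest, so the sums over VECs mix them in different shares. The 12 core genes defined below had a log2 ratio of 0.24 in the *Fabp4* cluster and 0.20 in the *Cytl1* cluster, against 0.49 over all VECs. In VECs the 4 erythroid genes had 19.9 CPM in Control and 472 CPM in AngII+HS, and the neutrophil markers 11.5 and 206 CPM, and their part in the ratios was not tested.

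In LECs, 9 of 25 measured members were at least 2-fold higher in AngII+HS, against 7.78% of all genes, and 2 were at least 2-fold lower, against 3.99%. These were few cells, 138 in Control and 157 in AngII+HS. *Ifih1*, the MDA5 sensor of double-stranded RNA, had 28.3 CPM in Control and 105 CPM in AngII+HS (log2 ratio 1.90, 1.32 to 2.50). *Ifi27l2a* had 155 and 531 CPM (1.77, 1.53 to 2.02). *Isg15* had 127 and 299 CPM (1.23), a ratio that became -0.06 when double the number of doublets was removed. Under that setting 2 of 19 members were at least 2-fold higher and 2 lower, with a median log2 ratio of 0.07, against 0.14 for all genes. *Oasl1* had 1 UMI in Control and 38 UMIs in AngII+HS (5.78, 3.22 to 11.1). *Stat2* had 74.4 CPM in Control and 52.7 CPM in AngII+HS (-0.50, -1.05 to 0.03), and *Irgm1* had 57.4 and 26.9 CPM (-1.09, -1.84 to -0.40). The neutrophil markers had 8.09 CPM in Control and 179 CPM in AngII+HS LECs, and the macrophage markers 32.4 and 131 CPM, and their part in the ratios was not tested.

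In macrophages, the phagocytes of the wall, *Oasl1*, *Ifih1*, *Ifi207* and *Ifi203* were lower in AngII+HS, and *Irf7*, *Ifi44* and *Ifi27l2a* were higher. In all, 10 of 41 measured members were at least 2-fold higher, against 10.5% of all genes, and 3 were at least 2-fold lower, against 17.9%. *Irf7*, the factor that amplifies type I interferon production, had 12 CPM in Control and 72.1 CPM in AngII+HS (log2 ratio 2.58, 2.02 to 3.20). *Oasl1*, an OAS-like protein known to hold back translation of *Irf7* mRNA, had 1376 and 316 CPM (-2.12, -2.18 to -2.06). The *Oasl1* level in Control was the highest of any member in any named cell type. *Ifih1* had 1131 CPM in Control and 371 CPM in AngII+HS (-1.61, -1.67 to -1.54). Among the p200 genes *Ifi207* had 1124 and 591 CPM (-0.93, -0.99 to -0.86), and *Ifi203* had 594 and 188 CPM (-1.66, -1.75 to -1.56). *Ifit1* had 197 and 98.7 CPM (-1.0, -1.15 to -0.84). *Parp14*, an ADP-ribosyltransferase, had 204 and 135 CPM (-0.60, -0.75 to -0.45). Over the list 29 members were higher and 12 lower, and the effectors that follow were among those higher or equal. *Ifi44* had 1.39 CPM in Control and 12.5 CPM in AngII+HS (3.17, 1.61 to 5.46), *Ifi27l2a* had 478 and 725 CPM, and *Isg15* had 190 and 259 CPM. *Rsad2*, the radical-SAM enzyme viperin, had 295 CPM in each library (0.00, -0.12 to 0.12).

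The macrophages of the libraries fell into different clusters, so genes were read within the cluster that held most Control macrophages. The cluster led by the complement gene *C1qa* held 427 of 472 macrophages in Control and 2259 of 4465 in AngII+HS. The cluster led by *Arg1* held 39 and 2109. Within the *C1qa* cluster *Oasl1* had 1613 CPM in Control and 496 CPM in AngII+HS (log2 ratio -1.70, -1.77 to -1.64). *Ifih1* had 1312 and 619 CPM (-1.09, -1.15 to -1.02), and *Ifi203* had 663 and 213 CPM (-1.64, -1.74 to -1.53). *Irf7* had 12.8 and 92.2 CPM there (2.85, 2.26 to 3.52), *Zbp1* had 7.76 and 46.6 CPM (2.59, 1.83 to 3.47), and *Bst2* had 195 and 432 CPM (1.15, 0.99 to 1.31). Lower *Oasl1*, *Ifih1* and *Ifi203* beside higher *Irf7*, *Zbp1* and *Bst2* was therefore also seen inside this cluster. *Oasl1* and *Ifih1* were among its leading genes although they had no part in the clustering. In the *Arg1* cluster the sum over members was 2588 CPM in Control, from 39 cells, and 3597 CPM in AngII+HS. There 19 of 40 measured members were at least 2-fold higher, against 14.1% of all genes, and 0 were at least 2-fold lower, against 15.7%. With so few Control cells these counts are a description only.

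**Figure D4:**
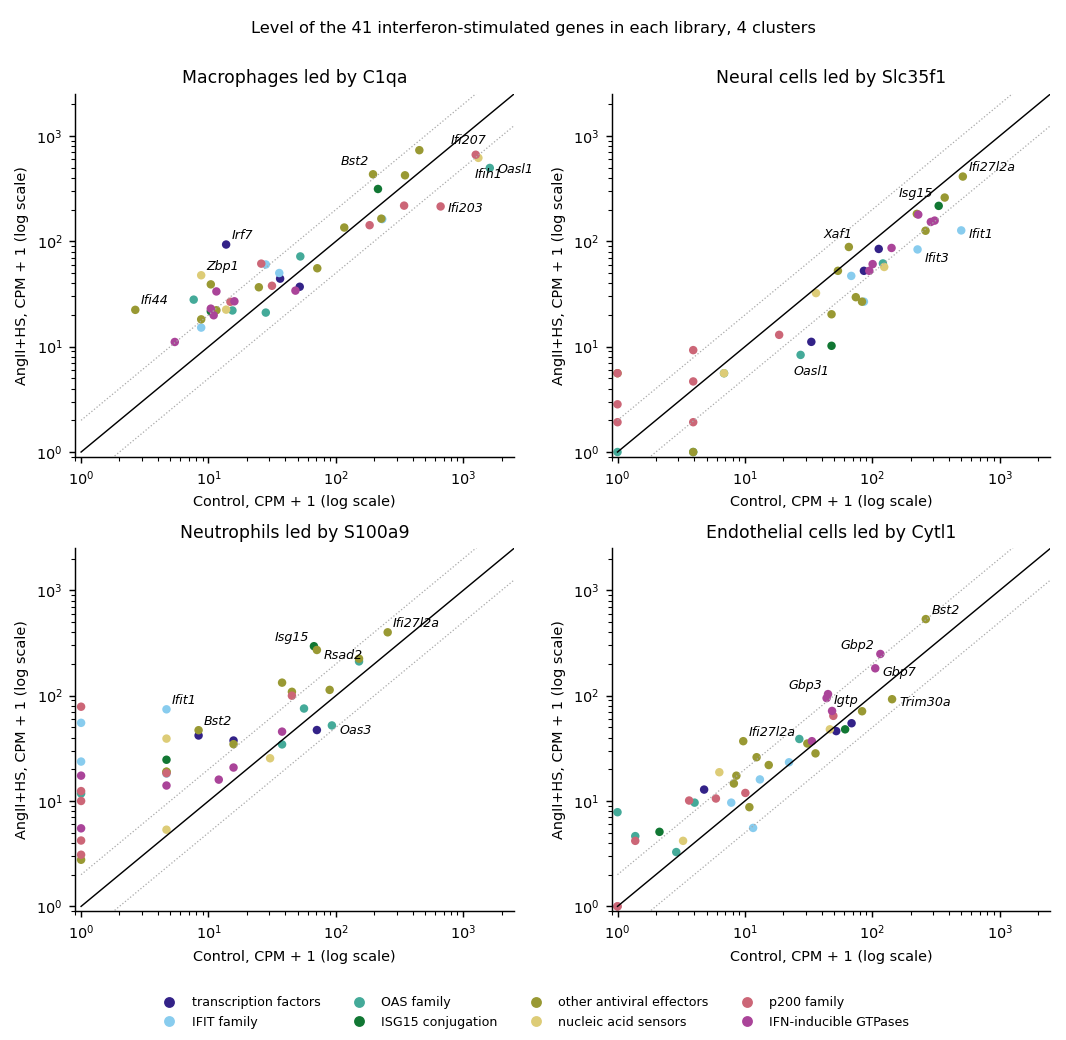
Level of the 41 genes in Control (x axis, CPM + 1, log scale) against AngII+HS (y axis, CPM + 1, log scale) in 4 clusters, coloured by role group, with the line of equality and dotted lines at 2-fold. In macrophages led by *C1qa*, *Oasl1*, *Ifih1*, *Ifi207* and *Ifi203* lie below the line and *Irf7*, *Zbp1* and *Bst2* above it; in neural cells led by *Slc35f1*, *Ifit1* and *Ifit3* lie below it.

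In neutrophils, the phagocytes that made up much of the AngII+HS library, 25 of 39 measured members were at least 2-fold higher in AngII+HS, against 27.4% of all genes, and 0 were at least 2-fold lower, against 12.3%. The Control value rests on 99 cells with 271704 UMIs, against 6215628 UMIs in AngII+HS, and 9 of the 39 genes had 0 UMIs in Control. In Control alone only 5 members reached 20 UMIs, so most passed the minimum through the AngII+HS sum, and their count and median are given as a description only. *Ifit1*, an IFIT protein that binds RNA lacking the host cap modification, had 1 UMI in Control and 455 UMIs (73.2 CPM) in AngII+HS (log2 ratio 4.31, 1.83 to 9.62). *Ifit3* had 0 UMIs in Control and 337 UMIs, or 54.2 CPM, in AngII+HS, a log2 ratio of at least 2.30 if 3 UMIs are taken for the Control library. *Ifi207* had 0 and 482 UMIs, at least 2.81 by the same floor. *Isg15* had 66.2 CPM in Control and 294 CPM in AngII+HS (2.15, 1.48 to 2.91), and *Rsad2* had 69.9 and 270 CPM (1.95, 1.30 to 2.69). *Irf9*, the DNA-binding subunit of ISGF3, had 69.9 and 46.2 CPM (-0.60, -1.27 to 0.15), and *Oas3* had 92.0 and 51.2 CPM (-0.85, -1.44 to -0.20). With the 9 genes at their floor the median log2 ratio was 1.03. The 6 neutrophil markers together had 127319 CPM in Control and 47163 CPM in AngII+HS, and the 4 erythroid genes 66.2 and 1245 CPM, and the part of either in the ISG ratios was not tested.

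In the T cell cluster, which also contained the natural killer markers at 336 CPM in Control and 341 CPM in AngII+HS, 19 of 35 measured members were at least 2-fold higher in AngII+HS, against 9.30% of all genes, and 0 were at least 2-fold lower, against 3.95%. In Control alone, with 133 cells, only 9 members reached the minimum number of UMIs. Most thus passed it through the AngII+HS sum, and their count and median are given as a description only. Of the 35 members, 4 had 0 UMIs in 1 library, and with these at their floor the median log2 ratio was 1.09. *Ifit1* had 0 UMIs in Control and 50 UMIs (17.4 CPM) in AngII+HS, at least 1.86 on the log2 scale by the 3-UMI floor. *Isg20*, an exonuclease that degrades viral RNA, had 1 and 67 UMIs (3.87, 1.34 to 9.2). *Igtp*, a GTPase induced chiefly by interferon gamma, had 15.9 CPM in Control and 61.9 CPM in AngII+HS (1.96, 1.05 to 3.04). *Isg15* had 19.1 and 90.1 CPM (2.24, 1.41 to 3.21), and *Ifi27l2a* had 156 and 393 CPM (1.33, 1.03 to 1.65). *Ifi213*, of the p200 family, had 36.6 and 32.7 CPM (-0.16, -0.83 to 0.56), and *Usp18*, the protease that removes Isg15 from its targets, had 19.1 and 13.9 CPM (-0.46, -1.42 to 0.61). The lower levels of these last 2 genes lie within the counting intervals. The 6 neutrophil markers had 1.59 CPM in Control and 250 CPM in AngII+HS T cells, and with free RNA subtracted the median was 0.74.

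In B cells, 4 of 20 measured members were at least 2-fold higher in AngII+HS, against 9.92% of all genes, and 1 was at least 2-fold lower, against 4.85%. In Control alone, with 100 cells, only 6 members reached 20 UMIs. Most thus passed the minimum through the AngII+HS sum, and these counts are a description only. The p200 gene *Ifi209* had 82.2 CPM in Control and 113 CPM in AngII+HS (log2 ratio 0.46, -0.11 to 1.08), the highest level of this gene in the compared cell types. *Ifi27l2a* had 141 and 179 CPM (0.35, -0.09 to 0.81). *Trim30a* had 115 and 70.6 CPM (-0.70, -1.21 to -0.15), and *Ifi213* had 58.7 and 26.9 CPM (-1.13, -1.88 to -0.32). *Isg15* and *Ifit1* were low: *Isg15* had 2.94 CPM in Control and 17.3 CPM in AngII+HS, and *Ifit1* had 0 and 5.01 CPM. The sign of the *Isg15* ratio turned, to -3.21, once free RNA was subtracted. That value stands at the floor, since the subtraction left no *Isg15* UMI in AngII+HS B cells and only the added 0.5 UMI remained.

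Neural cells were the only compared type in which the list was mostly lower in AngII+HS: 5 of 29 measured members were higher and 24 lower. Of these, 0 were at least 2-fold higher, against 5.88% of all genes, and 9 were at least 2-fold lower, against 4.21%. These counts changed with the processing. With equal weight per cell 1 was at least 2-fold higher and 4 lower, and with doublets kept 5 of 33 were higher and 4 lower. With cells thinned to 1000 UMIs 0 of 20 were higher and 2 lower. In these settings, in that order, the median of the members was -0.36, -0.43 and -0.63, against -0.01, -0.05 and -0.02 for all genes. *Ifit1* had 361 CPM in Control and 113 CPM in AngII+HS (log2 ratio -1.68, -2.01 to -1.34), *Ifit3* had 164 and 77.5 CPM (-1.08, -1.53 to -0.63), and *Ifit3b* had 63.7 and 23.4 CPM (-1.44, -2.23 to -0.66). The *Ifit1* and *Ifit3* levels of Control were the highest of these genes in the compared cell types. All 6 GTPases were lower in AngII+HS: *Irgm1* had 280 CPM in Control and 150 CPM in AngII+HS (-0.90, -1.23 to -0.57), and *Gbp7* had 238 and 144 CPM (-0.73, -1.08 to -0.37). *Xaf1*, an interferon-induced antagonist of the apoptosis inhibitor XIAP, had 55.2 and 87.2 CPM (0.66, 0.03 to 1.34), and *Ifi35* had 44.6 and 49.2 CPM (0.14, -0.59 to 0.93). *Ifi27l2a* had 374 and 390 CPM. Marker levels differed as well: the 6 neural markers had 12913 CPM in Control and 7336 CPM in AngII+HS, the 5 fibroblast markers 656 and 2264 CPM, and the 6 neutrophil markers 25.5 and 398 CPM, and their part in the ISG ratios was not tested.

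The neural difference was also seen within 1 cluster. In the cluster led by *Slc35f1* (96 Control and 353 AngII+HS cells) the sum over members was 4672 CPM in Control and 2724 CPM in AngII+HS, and *Ifit1* had 498 and 126 CPM (log2 ratio -1.98, -2.32 to -1.65). *Usp18* had 46.9 and 9.19 CPM there (-2.35, -3.65 to -1.12). The tenth of *Slc35f1* cells with most core UMIs, as defined next, held 66.1% of these UMIs in Control and 57.1% in AngII+HS. In Control this share was also 69.2% in VECs, 67.6% in LECs and 47.8% in macrophages. The mean was 0.30 core UMIs per cell in these VECs and 0.25 in these LECs, against 1.34 in Control and 0.65 in AngII+HS *Slc35f1* cells. The variance of core UMIs per cell was 8.07 times the mean in 88 Control *Slc35f1* cells and 2.49 times in AngII+HS. In Control it was 7.48 times over all neural cells, 5.38 in macrophages, 2.27 in VECs and 1.47 in LECs.

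The distribution over cells was read from 12 core genes of the type I response: *Ifit1*, *Ifit2*, *Ifit3*, *Ifit3b*, *Isg15*, *Rsad2*, *Cmpk2*, *Usp18*, *Oasl1*, *Oasl2*, *Rtp4* and *Irf7*. To compare cells at equal depth, 1000 UMIs were drawn at random from each, and cells with fewer were not counted, which removed 848 of 4659 AngII+HS neutrophils. A cell with at least 3 core UMIs was counted. The share was 30.3% of macrophages in Control (26.1 to 34.8) and 15.2% in AngII+HS (14.1 to 16.3). It was 4.12% of neutrophils in Control (1.14 to 10.2) and 11% in AngII+HS (10.0 to 12.1), and these intervals overlap. It was 11.3% of neural cells in Control (6.45 to 17.9) and 6.86% in AngII+HS (4.53 to 9.89), again with overlapping intervals. Thinned to 2000 UMIs the neural order turned, with 16.8% in Control and 17.7% in AngII+HS. At that depth only 107 of 149 Control and 243 of 449 AngII+HS neural cells were kept. Without thinning the neutrophil order turned, with 15.2% in Control and 13.5% in AngII+HS.

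In the other types the share ranged from 0 in B cells to 11.1% in AngII+HS DCs. B cells, taken as a type with few of these transcripts, had 0 of 98 such cells in Control and 0 of 957 in AngII+HS. With 3 cells taken as the floor for a count of 0, this allows a share of up to 3.06% and 0.313%, and the exact upper limits are 3.69% and 0.385%. Their median depth before thinning was 3010 UMIs in Control and 1985 in AngII+HS, against 4284 and 4051 in macrophages. The share was 1.76% of VECs in Control and 3.12% in AngII+HS, 0.762% and 1.62% of fibroblasts, and 0.0199% and 0.613% of VSMCs. It was 2.21% of LECs in Control and 5.48% in AngII+HS, and 0 and 1.48% of T cells. Among AngII+HS DCs it was 11.1%.

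**Figure D5:**
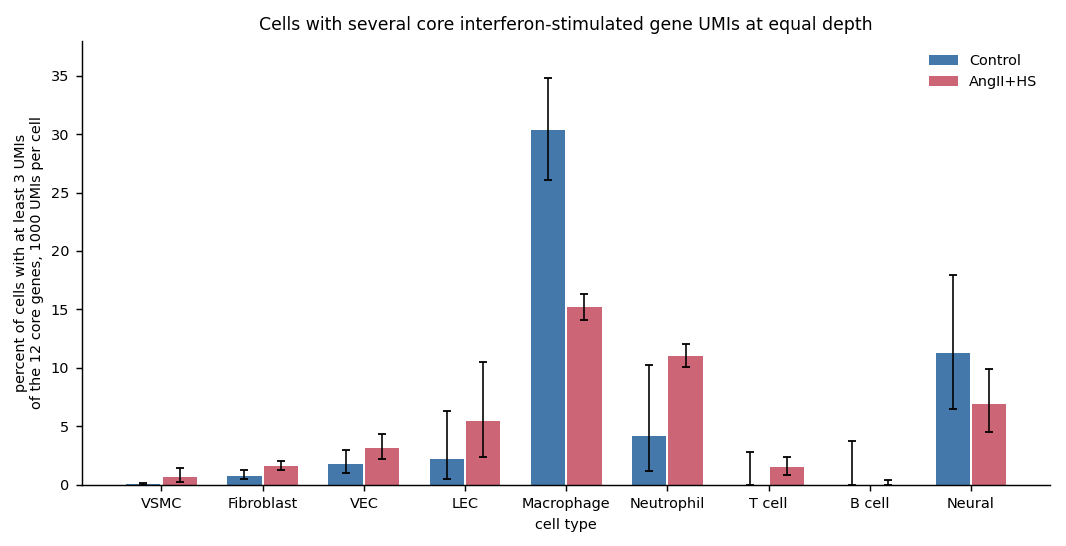
Percent of cells with at least 3 UMIs of the 12 core genes after each cell was thinned to 1000 UMIs, in Control (blue) and AngII+HS (red), for 9 cell types; error bars are exact 95% binomial intervals of counting. Macrophages stand at 30.3% in Control and 15.2% in AngII+HS, and B cells at 0 in both.

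The macrophage share leaned on *Oasl1*, which gave 1376 of the 2253 core CPM in Control. Counted by genes instead of UMIs, 11.7% of Control macrophages and 9.35% of AngII+HS macrophages had at least 3 different core genes. In the *C1qa* cluster these shares were 12.5% and 13.8%, so the order between libraries was not that of the UMI shares, which were 33.0% and 22.6%.

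In AngII+HS neutrophils the core genes were gathered in a small set of cells. The variance of core UMIs per cell was 10.4 times the mean, against 1.71 in Control neutrophils and 1.08 in AngII+HS B cells. The means themselves were unequal, at 1.23, 0.46 and 0.08 core UMIs per cell in that order, so these ratios are not at equal level. The highest number of core genes in 1 AngII+HS neutrophil was 12. The tenth of cells with most core UMIs held 73.5% of them, against 57.8% in Control neutrophils, from 97 cells. This share was 78.9% in AngII+HS fibroblasts, 72.3% in T cells and 100% in B cells, where core UMIs were few. By itself it therefore does not show gathering. Of 122 neutrophils with an *Ifit3* UMI, 76.2% also had an *Isg15* UMI, against 12.3% of the rest. The corresponding shares for *Rsad2* were 63.9% and 8.59%, and for *Ifit1* 46.7% and 2.47%. AngII+HS macrophages showed the same grouping, with *Isg15* in 62.6% of 107 cells with *Ifit3* and in 14.8% of the rest. In Control neural cells of the *Slc35f1* cluster, 9 of 10 cells with *Ifit3* also had *Ifit1*.

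The interferons themselves were scarce. *Ifnb1*, which encodes interferon beta, had 53 UMIs in Control and 461 in AngII+HS, of which 53 and 427 were in macrophages, at 24.6 and 21.7 CPM (log2 ratio -0.18, -0.59 to 0.26). *Ifng*, which encodes interferon gamma, had 10 and 593 UMIs, of which 9 and 562 were in the T cell cluster, at 14.3 and 195 CPM (3.77, 2.83 to 4.91). Of the list of 8 interferon genes, these 2 alone reached 20 UMIs over all cells. The ratio of *Ifnb1* within macrophages was thus near 0, and that of *Ifng* within T cells was not.

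The receptors and kinases were found in each compared cell type. All 7 genes of this list were measured in 8 of the 9 cell types and 6 in neural cells, and the median log2 ratio lay between -0.26 in neutrophils and 0.67 in macrophages. *Ifnar2*, a chain of the type I receptor, had 200 CPM in Control and 339 CPM in AngII+HS macrophages. *Ifngr1*, a chain of the interferon gamma receptor, had 613 and 873 CPM in T cells.

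*Irf1*, an early interferon-induced factor that is not a member, had 463 CPM in Control and 228 CPM in AngII+HS VSMCs (log2 ratio -1.02, -1.10 to -0.95) and 184 and 519 CPM in neutrophils (1.5, 1.09 to 1.93). Of 20 further ISGs outside the list, 17 were measured over the VSMC clusters with 10 at least 2-fold higher and 0 lower, against the 8.46% and 8.57% of all genes given above, and 16 in neural cells with 0 higher and 3 lower, against 5.88% and 4.21%. In T cells 6 of 16 were at least 2-fold higher, against 9.30% of all genes, and 0 lower, against 3.95%. In macrophages 4 of 19 were higher, against 10.5%, and 2 lower, against 17.9%. In neutrophils 4 of 14 were higher, near the 27.4% of all genes, and 1 lower, against 12.3%. In B cells 3 of 12 were higher, against 9.92%, and 0 lower, against 4.85%. In LECs 2 of 16 were higher, against 7.78%, and 2 lower, against 3.99%. In fibroblasts 2 of 18 and in VECs 1 of 18 were higher, against 6.94% and 7.93%, and 0 lower, against 9.23% and 5.93%. Of 9 nucleic acid sensing genes, 1 was higher and 8 lower in AngII+HS macrophages, none by 2-fold. Their median log2 ratio was -0.27, and that of all measured genes in macrophages was also negative, at -0.14.

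Values of the members not yet described follow. *Rtp4*, a chaperone-like antiviral protein, had 0.248 CPM in Control and 3.48 CPM in AngII+HS VSMCs (log2 ratio 3.81, 2.78 to 4.91) and 53.1 and 26.6 CPM in neural cells (-1.0, -1.79 to -0.18). *Cmpk2*, the mitochondrial nucleotide kinase gene next to *Rsad2*, had 34.0 and 16.9 CPM in neural cells and 6.95 and 14.5 CPM in macrophages. *Parp14* had 41.4 and 94.6 CPM in T cells. *Dhx58*, the RNA helicase LGP2, had 11.6 and 19.0 CPM in macrophages. *Oas1a* had 13.4 and 19.5 CPM and *Ifi206* had 11.6 and 19.8 CPM in macrophages. *Ifi47*, a GTPase, had 0.723 and 6.68 CPM in VSMCs (3.21, 2.55 to 3.87) and 68.0 and 46.8 CPM in neural cells (-0.54, -1.18 to 0.13).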

How the data were processed

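Raw UMI counts per gene and barcode were deposited by the authors, 1 matrix per library, with Control holding 11448 barcodes and 86618995 UMIs and AngII+HS 24804 and 117146856. The matrix header names Cell Ranger 8.0.1. The labels list mm10, whereas the study's methods give GRCm39, so no coordinates were taken from the matrices. Both recorded barcode lists shared 67 barcodes. Cells needed at least 500 UMIs, 200 genes and at most 20% mitochondrial UMIs. Scrublet (scanpy 1.11.5) scored the cells, and the 1019 Control and 4826 AngII+HS cells with the highest scores were removed as presumed doublets. The number to remove was set beforehand as 0.8% per 1000 cells. The shares removed, 9.03% in Control and 19.6% in AngII+HS, thus follow from the cell numbers. Clustering used Seurat 5.3.0 in R 4.3.3 (2000 variable genes without interferon genes, 30 components, resolution 0.8). Clusters were named from at least 3 detected markers. Sums, ratios and exact intervals were computed in Python 3.11.15 with numpy 2.4.6, scipy 1.17.1 and pandas 2.3.3, and figures with matplotlib 3.10.9. The scripts were tested on simulated data.

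The members and lists were chosen with earlier results of these data known. Genes described with full values were the 10 most abundant members, the 2 highest and 2 lowest ratios per cell type among members with at least 50 UMIs, and the most abundant member of each role group; others were chosen after their values were seen. No replicates exist, so no condition was tested. The design called for no model. Alternatives covered doublets, clustering, scaling (TMM, edgeR 4.0.16), thinning, weighting of cells, thresholds and free RNA. PCR duplicates are collapsed in UMIs, and the intervals cover counting only. Some results are not reported here.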

Additional observations from a re-analysis of the deposited data

How the results depend on the processing

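No paired analysis was possible because each condition is 1 library. The median log2 ratio of the members kept its sign under all alternatives except in B cells, where it ranged from -0.41 to 0.28. It ranged from 0.05 to 0.72 in fibroblasts, 0.07 to 1.22 in LECs and 1.02 to 1.99 in neutrophils. With doublets kept it was 2.83 in VSMCs and 1.58 in T cells, and under TMM scaling 0.84 in macrophages and 1.34 in T cells. Thinned to 1000 UMIs per cell it was 0.31 in VECs, and with equal weight per cell it was -0.36 in neural cells. In the VSMC cluster led by *Mylk4* it was 0.54 and in the VEC cluster led by *Fabp4* 0.28, both choices made after seeing the data. The share of cells with at least 3 core UMIs depended on depth. Thinned to 2000 UMIs it was 48.9% and 25.8% of macrophages in Control and AngII+HS, 11.4% and 19.0% of neutrophils, 4.99% and 7.02% of VECs, and 16.8% and 17.7% of neural cells. Cells with fewer UMIs were left out, which kept 88 of 99 Control but only 284 of 4659 AngII+HS neutrophils. Of neural cells it kept 107 of 149 and 243 of 449. Without thinning the share was 54.4% and 36.7%, 15.2% and 13.5%, 14.8% and 19.5%, and for neural cells 24.8% and 17.6%. With at least 5 core UMIs it was 17.1% and 8.66%, 1.03% and 6.74%, 0.880% and 0.535%, and for neural cells 5.26% and 2.11%. Of 1524 alternative values of 127 single-gene ratios, 1293 stayed within their counting interval and 221 moved further. The other 10 changed sign from a ratio that was at least 2-fold different at first. Sign changes of smaller ratios were not counted apart and fall under those that stayed or moved. With free RNA subtracted, *Rsad2* in VSMCs was at -2.65, *Ifi203* in neutrophils at -4.45, *Ifi207* in T cells at -2.17 and *Isg15* in B cells at -3.21. The subtraction could leave a sum empty before 0.5 UMI was added, so such values can stand at the floor, as that of *Isg15* in B cells did. With double the number of doublets removed, *Isg15* was at -0.057 and *Ifit1* at -0.71 in LECs. *Ifi204* in thinned T cells was at -0.22. *Oasl1* in neural cells was at 0.94 with doublets kept, 0.25 with equal weight per cell and 1.30 when thinned. The causes were not tested. With 1 library per condition, variation between mice was not measured, and small cell numbers limit Control neutrophils, T cells, B cells and DCs.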

Other observations

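*Cxcl10*, a T cell chemokine induced by interferon and no member of the list, was abundant where the members were. It had 686 CPM in Control and 641 CPM in AngII+HS macrophages (log2 ratio -0.10, -0.18 to -0.02), and 864 and 975 CPM in neural cells (0.17, 0.01 to 0.34), where the core members were lower in AngII+HS. In VECs it had 36.3 and 183 CPM (2.33, 2.09 to 2.58), and in neutrophils 2 and 1375 UMIs (4.91, 3.05 to 7.96). *Socs1*, a feedback inhibitor of Janus kinases, had 44.8 and 15.5 CPM in VSMCs (-1.53, -1.82 to -1.25) and 78.3 and 52.3 CPM in fibroblasts (-0.58, -0.71 to -0.46).

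The fibroblast cluster led by *Prg4* was found in AngII+HS alone, with 162 cells, and had 2131 CPM summed over the 41 members, against 1311 CPM over all AngII+HS fibroblasts. The estimated share of free RNA was 8.40% of the UMIs of Control VSMCs and 5.17% of those of AngII+HS, and it was 21.8% and 12.2% in macrophages.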
